A study of Homo sapiens with 2 samples.

Results

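The genes described here are 9 members of the BCL2 family, the regulators of the mitochondrial route to apoptosis, as measured in NUGC4 cells with and without an siRNA against ANO5. They were chosen by symbol, as every transcript cluster of the deposited value table whose annotated gene is BCL2L1, MCL1, BAK1, BCL2L11, BMF, HRK, BIK, BID or BAD. All 9 were found, each with 1 cluster, among 14526 named genes. NUGC4 is a human gastric cancer cell line, and ANO5 encodes anoctamin 5, a membrane protein of a family that includes ion channels and lipid scramblases. Both cultures were NUGC4 cells transfected with siRNA 24 h after seeding at 20 nmol/l, the control with a negative control siRNA and the other with a single ANO5 siRNA product. Each group is 1 array, so every difference compares 2 RNA samples, has no spread between replicates and was not tested.

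Proteins of the BCL2 family decide whether the outer mitochondrial membrane is opened. The pro-survival proteins, here BCL2L1 (BCL-XL) and MCL1, hold the others in check, and the effectors, here BAK1 (BAK), form the pores through which cytochrome c leaves. The BH3-only proteins, named after the short helix they use to bind their relatives, carry death signals to both. Much of this control acts on the proteins, through phosphorylation, cleavage and turnover, and is not seen in RNA. BAX, BBC3 and PMAIP1 were not analysed here.

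The ANO5 siRNA array was higher by 1.5-fold or more (a log2 difference of 0.58 or more) for 5 of the 9 members, lower by as much for 2, and within 1.5-fold for 2. The genes higher were BCL2L11, BAK1, BID, MCL1 and BAD, and the genes lower were HRK and BCL2L1. By this rule of size 23.2% of the 9735 named genes in the measured range were higher and 20.1% lower, where the measured range leaves out genes whose mean over both arrays was under 6.05 on the log2 scale, the 33rd percentile. The members' shares were 55.6% higher and 22.2% lower, so that the share of higher members lay above the background and the share of lower members near it. The median difference of the members was 0.63 on the log2 scale, beside 0.07 for all measured genes. The 9 genes were chosen by name, with earlier results of these data known. Their shares describe the genes and were not tested.

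**Figure D1:**
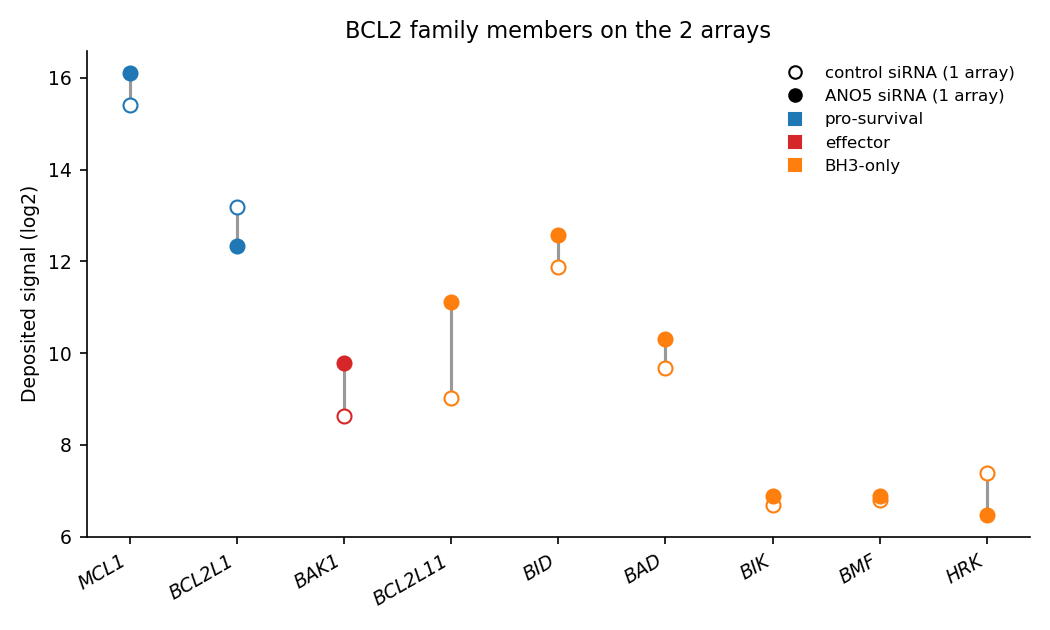
Deposited signal of each member, read as log2 (vertical axis) and coloured by role. Open circles are the control siRNA array and filled circles the ANO5 siRNA array. The line joins the arrays, and levels should be read within a gene. BCL2L11 went from 9.03 to 11.11 and BAK1 from 8.62 to 9.79, whereas BCL2L1 and HRK had their filled circle below the open one.

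The 2 pro-survival members differed in opposite directions. BCL2L1 encodes BCL-XL, which binds BH3-only proteins and BAK at the mitochondrial membrane. Its log2 signal (cluster TC2000008815.hg.1) was 13.18 on the control array and 12.34 on the ANO5 siRNA array, a difference of -0.84 or 1.79-fold lower. A difference as low as this or lower was found for 14.2% of the measured genes. MCL1 encodes a short-lived pro-survival protein that also holds BAK and BIM. Its log2 signal (cluster TC0100018484.hg.1) was 15.41 on the control array and 16.11 on the ANO5 siRNA array, a difference of 0.70 or 1.62-fold higher. A difference as high or higher was found for 19.2% of the measured genes. The ratio of MCL1 to BCL2L1 signal was thus 2.91-fold higher on the ANO5 siRNA array, which shows unequal change and not which of them changed. The median of both genes, -0.07, falls between values of opposite sign and describes neither. Both genes have splice forms of opposite function, and 1 value per gene does not separate them.

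The effector BAK1 (cluster TC0600011553.hg.1) was higher on the ANO5 siRNA array. BAK sits in the outer mitochondrial membrane and oligomerises when a BH3-only protein engages it. Its log2 signal was 8.62 on the control array and 9.79 on the ANO5 siRNA array, a difference of 1.17 or 2.25-fold. A difference as high or higher was found for 8.02% of the measured genes. BAK1 and BCL2L11 were the members past 2-fold, a size that 11.2% of measured genes reached upwards and 11.3% downwards. Set against the pro-survival genes, the BAK1 difference exceeded that of BCL2L1 by 2.01 and that of MCL1 by 0.47 on the log2 scale.

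Of the 6 BH3-only genes, 3 were higher by 1.5-fold or more, 1 was lower and 2 lay within 1.5-fold. These are 50% higher and 16.7% lower, beside 23.2% and 20.1% of all measured genes. Their median difference was 0.41, with a range from -0.90 to 2.08. BCL2L11 encodes BIM, a BH3-only protein that binds every pro-survival relative and can engage the effectors directly. Its log2 signal (cluster TC0200008870.hg.1) was 9.03 on the control array and 11.11 on the ANO5 siRNA array. The difference of 2.08, or 4.23-fold higher, was the largest in size of the 9 members, and 138 of the 9735 measured genes (1.42%) had a difference as high or higher. It exceeded the differences of MCL1 by 1.38 and of BCL2L1 by 2.92 on the log2 scale. BIM is made in several splice forms of different potency, which this value pools as far as the cluster reads them.

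BID is activated by caspase-8 cleavage and links death receptors to mitochondria. Its log2 signal (cluster TC2200007906.hg.1) was 11.87 on the control array and 12.58 on the ANO5 siRNA array, a difference of 0.71 or 1.64-fold higher. BAD is a sensitiser that binds BCL-XL and is held in the cytosol when phosphorylated. Its log2 signal (cluster TC1100011158.hg.1) was 9.68 on the control array and 10.31 on the ANO5 siRNA array, a difference of 0.63 or 1.55-fold higher. Differences as high or higher were found for 18.8% (BID) and 21.5% (BAD) of the measured genes. BAD lay nearest above the 1.5-fold limit, and BIK, at 0.20, nearest below it. After loess normalization of the arrays both fell short of that limit, BID at 0.57 and BAD at 0.52, which left 3 higher members, where 19.7% of measured genes were then higher.

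HRK (harakiri) encodes a BH3-only protein best known from neurons, which binds BCL-XL. It was the BH3-only gene that was lower, with a log2 signal (cluster TC1200012852.hg.1) of 7.38 on the control array and 6.48 on the ANO5 siRNA array. The difference was -0.90, or 1.87-fold lower, a value reached or passed downwards by 12.9% of measured genes. With a pseudocount of 64 on the linear scale it shrank to -0.59, next to the 1.5-fold limit. BMF and BIK barely differed. BMF, which is tethered to myosin motors and is released when cells detach, had log2 signals of 6.80 and 6.88 (control first), and BIK, a BH3-only protein of the endoplasmic reticulum, 6.69 and 6.89. The values of BMF, BIK and HRK on the ANO5 siRNA array lay at or above 43.2%, 43.3% and 40.0% of all clusters on that array. No detection call was used, so how much of these low signals is background was not tested.

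**Figure D2:**
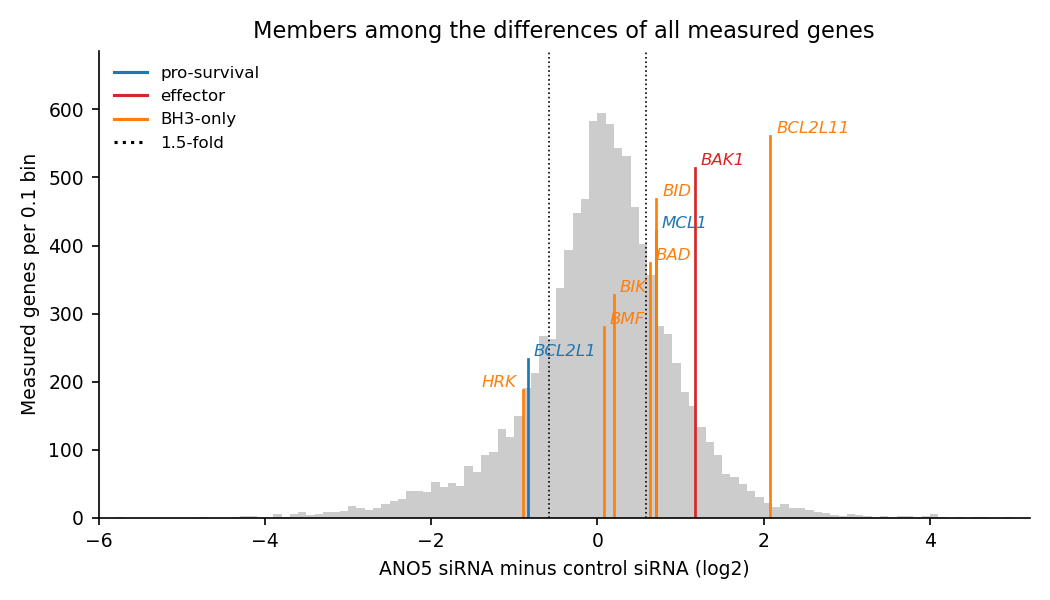
Histogram of the log2 difference, ANO5 siRNA minus control siRNA, over the 9735 measured genes (bins of 0.1), with a coloured line for each member (the height of a line carries no value) and dotted lines at 1.5-fold. BCL2L11 at 2.08 stands in the upper tail, while HRK (-0.90) and BCL2L1 (-0.84) lie on the lower flank beside many other genes.

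The roles overlapped in their differences. All BH3-only genes but HRK, 5 of 6, had a higher difference than BCL2L1, whereas 2 of 6, BCL2L11 and BID, had a higher one than MCL1, BID by 0.01. The 2 lowest differences belonged to a BH3-only gene and a pro-survival gene, and the highest to a BH3-only gene and the effector. The measured genes were split by mean level into 3 bands of 3245 genes each. In the middle band all 3 members (BAK1, BCL2L11 and BAD) were higher by 1.5-fold or more, where 25.7% of that band were. In the highest band 2 were higher (MCL1 and BID) and 1 lower (BCL2L1), with 23.6% and 17.7% of the band. In the lowest band 0 were higher and 1, HRK, was lower, with 20.2% and 19.5% of the band.

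**Figure D3:**
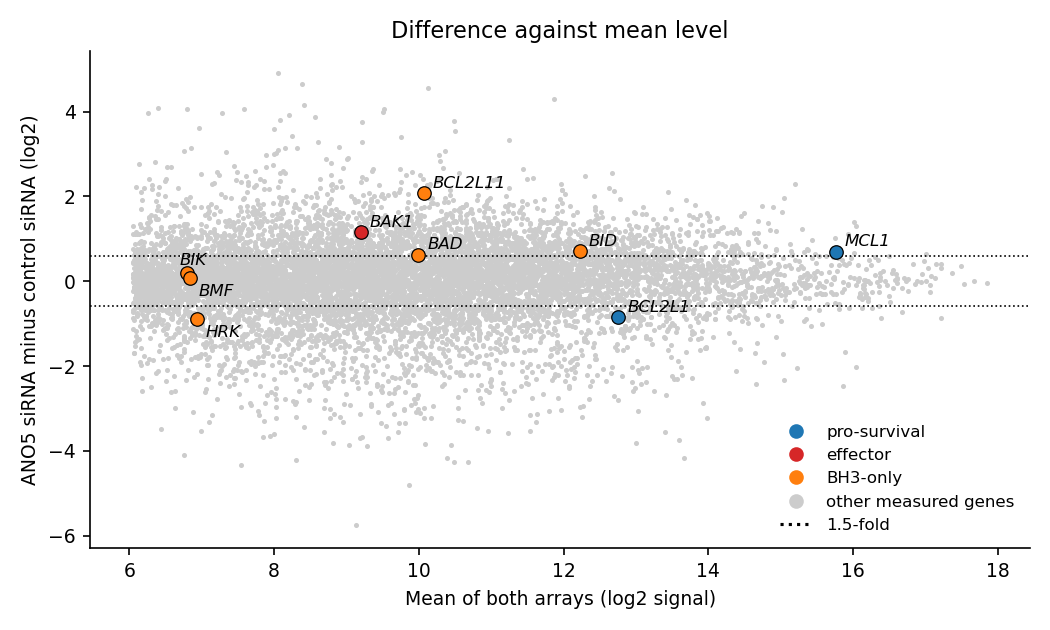
Log2 difference, ANO5 siRNA minus control siRNA, against the mean log2 signal of both arrays, for the 9735 measured genes (grey) and the 9 members (coloured by role), with dotted lines at 1.5-fold. BMF, BIK and HRK sit at mean levels of 6.84, 6.79 and 6.93, near the lower limit of 6.05, and BCL2L11, at a mean level of 10.07, is the highest of the coloured points.

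The upstream sequence of the members was set beside these values. RefSeq start sites (GRCh38.p14) were matched for 7 members, and MCL1 and BIK had no entry in the table used. The 250 bases before the start are shown for the member with the largest positive difference and for both members that were lower, 5′ to 3′ on the gene's own strand. Capitals mark matches on either strand to the binding motifs of factors known to act on these genes, searched as GTAAACA (FOXO), TTTNNCGC (E2F), TGANTCA (AP-1) and TGTGGT (RUNX). None of the marked matches overlap.
BCL2L11 (chr2:111120664-111120913, plus strand): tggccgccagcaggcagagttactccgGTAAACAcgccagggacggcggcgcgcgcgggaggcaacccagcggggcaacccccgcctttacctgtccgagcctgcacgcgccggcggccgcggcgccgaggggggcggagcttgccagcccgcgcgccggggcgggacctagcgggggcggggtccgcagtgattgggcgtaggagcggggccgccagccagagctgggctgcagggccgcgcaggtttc
BCL2L1 (chr20:31723964-31724213, minus strand): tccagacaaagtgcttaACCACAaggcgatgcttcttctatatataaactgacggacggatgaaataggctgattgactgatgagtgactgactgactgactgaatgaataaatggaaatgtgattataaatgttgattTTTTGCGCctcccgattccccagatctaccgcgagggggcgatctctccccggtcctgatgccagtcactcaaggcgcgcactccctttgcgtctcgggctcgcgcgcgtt
HRK (chr12:116881442-116881691, minus strand): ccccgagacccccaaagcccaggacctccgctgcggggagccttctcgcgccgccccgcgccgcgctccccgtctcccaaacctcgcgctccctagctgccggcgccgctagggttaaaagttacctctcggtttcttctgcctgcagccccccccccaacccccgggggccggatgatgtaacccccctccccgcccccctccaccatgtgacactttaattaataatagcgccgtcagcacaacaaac

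The BCL2L11 stretch held a FOXO match from 223 to 217 bases before the start, and no other motif searched. Among the 7 member promoters it was the only one with this motif, which 2.32% of 15842 protein-coding promoters of the same length hold. The BCL2L1 stretch held an E2F match (111 to 104 bases before the start) and, on the opposite strand, a RUNX match (233 to 228). These motifs occur in 7.68% and 9.08% of promoters, and the AP-1 motif, found in 0 of the 7, occurs in 5.04%. The HRK stretch held none of these letters. In the strings searched N stands for any base, so the E2F and AP-1 searches were loose, and the E2F match in BCL2L1 read TTTTGCGC. A match is a string of letters that different factors may bind, and not a measured binding site.

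Transcription factors known to act on BH3-only genes (FOXO1, FOXO3, FOXO4, JUN, DDIT3, E2F1, RUNX3, SMAD2, SMAD3 and SMAD4) formed 1 of 6 lists of related genes. Of its 10 genes 7 were in the measured range, 2 of them higher and 2 lower by 1.5-fold or more, with a median of 0.32. That is 28.6% each way, beside 23.2% of all measured genes higher and 20.1% lower. FOXO3, a FOXO factor that activates BCL2L11, had log2 signals of 9.20 (control) and 9.36 (ANO5 siRNA), a difference of 0.16. FOXO4 differed by 0.92, from a control signal of 6.25 that is near the limit of 6.05. SMAD3, which carries TGF-beta signals, differed by 1.48. E2F1, the S-phase transcription factor, was lower, at 8.12 on the control array and 5.13 on the ANO5 siRNA array (-2.99), and RUNX3, a gastric tumour suppressor linked to BIM, differed by -1.17. Both had a log2 signal under the limit of 6.05 on the ANO5 siRNA array, RUNX3 at 5.50. These 2 lower genes thus entered the measured range, and the list's counts and median, through the control array, where they were high. How much of these values and of the FOXO4 signal is background was not tested.

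The list of other BCL2-related genes went both ways as well. Of 15 genes, 14 were in the table and 12 in the measured range, 5 of them higher and 2 lower, with a median of 0.35. These are 41.7% and 16.7%, beside 23.2% and 20.1% of all measured genes. BNIPL had log2 signals of 5.30 on the control array and 9.26 on the ANO5 siRNA array. Its control value lies under the limit of 6.05, so that it entered the measured range through the array where it was high, and how much of that control value is background was not tested. BNIP2 differed by 1.49 and BCL2L15, a gut-expressed relative, by 0.90. BCL2L12 differed by -1.08 and BNIP3L, a mitophagy receptor, by -0.64. BCL2 itself, the founding pro-survival gene and named here after its value was seen, lay below the measured range, at 5.82 on the control array and 4.93 on the ANO5 siRNA array. BCL2L2, another pro-survival gene named after its value was seen, barely differed, at 9.08 (control) and 9.15 (ANO5 siRNA).

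Among kinases and binding proteins that act on BH3-only proteins, 8 of 20 measured genes were higher and 4 lower, with a median of 0.11. These are 40% and 20%, beside 23.2% and 20.1% of all measured genes, so that the share of lower genes was near the background. The kinases MAPK3 (ERK1) and RPS6KA1 (RSK1), of the pathway that marks BIM and BAD by phosphorylation, differed by 1.43 and 1.23, and the stress kinase MAPK8 (JNK1) by 1.08. AKT2, a kinase that acts on BAD, went the other way, from 11.26 on the control array to 7.84 on the ANO5 siRNA array (-3.42). Its paralog AKT1 was higher, at 10.64 on the control array and 11.43 on the ANO5 siRNA array (0.79). RPS6KA3, a paralog of RPS6KA1, differed by -0.07 and MAPK9, a paralog of MAPK8, by -0.52. These paralogs were looked up after their values were seen. YWHAH, of the adaptor family that holds phosphorylated BAD in the cytosol, differed by -1.76. The family's other genes in the list were looked up after their values were seen. YWHAG differed by -0.71, while YWHAB, YWHAE, YWHAQ, YWHAZ and SFN lay within 1.5-fold, from -0.26 to 0.33. DYNLL1, the dynein light chain that can bind BIM, differed by -1.18, and its paralog DYNLL2, which can bind BMF, by 0.70, a gene chosen after its value was seen.

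Genes of MCL1 protein turnover were higher in 3 of 9 and lower in 0 (33.3% and 0%), with a median of 0.27, beside 23.2% and 20.1% of all measured genes. They were GSK3B (1.61) and GSK3A (0.97), kinases that mark MCL1 for destruction, and FBXW7 (1.37), a ubiquitin ligase subunit that recognises it. In the death receptor route to BID, 3 of 11 measured genes were higher and 1 lower, with a median of 0.14. These are 27.3% and 9.09%, beside the same 23.2% and 20.1%. FAS, a death receptor, differed by 1.05, TNFSF10 (TRAIL), a ligand of other death receptors, by 0.86 and CFLAR, which blocks caspase-8, by 0.81. Of the TRAIL receptors in the list, TNFRSF10B differed by -1.51 and TNFRSF10A, looked up after its value was seen, by 0.42. CASP8, the protease that cleaves BID, had log2 signals of 11.90 (control) and 11.87 (ANO5 siRNA) and was looked up after its value was seen.

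Downstream of the BCL2 family, at the outer membrane and the apoptosome, 4 of 13 measured genes were higher and 2 lower, with a median of 0.37. These are 30.8% and 15.4%, beside 23.2% and 20.1% of all measured genes. XIAP, which inhibits caspases, differed by 1.57, AIFM1, a mitochondrial flavoprotein, by 0.84 and CASP9, the initiator caspase of this route, by 0.80. OPA1, which shapes the inner mitochondrial membrane, differed by -0.84 and VDAC3, an outer membrane channel, by -0.63. Over the 6 lists together 34.7% of 72 measured genes were higher and 15.3% lower, beside the 23.2% and 20.1% given above. Genes that promote and genes that restrain apoptosis stood on both sides.

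**Figure D4:**
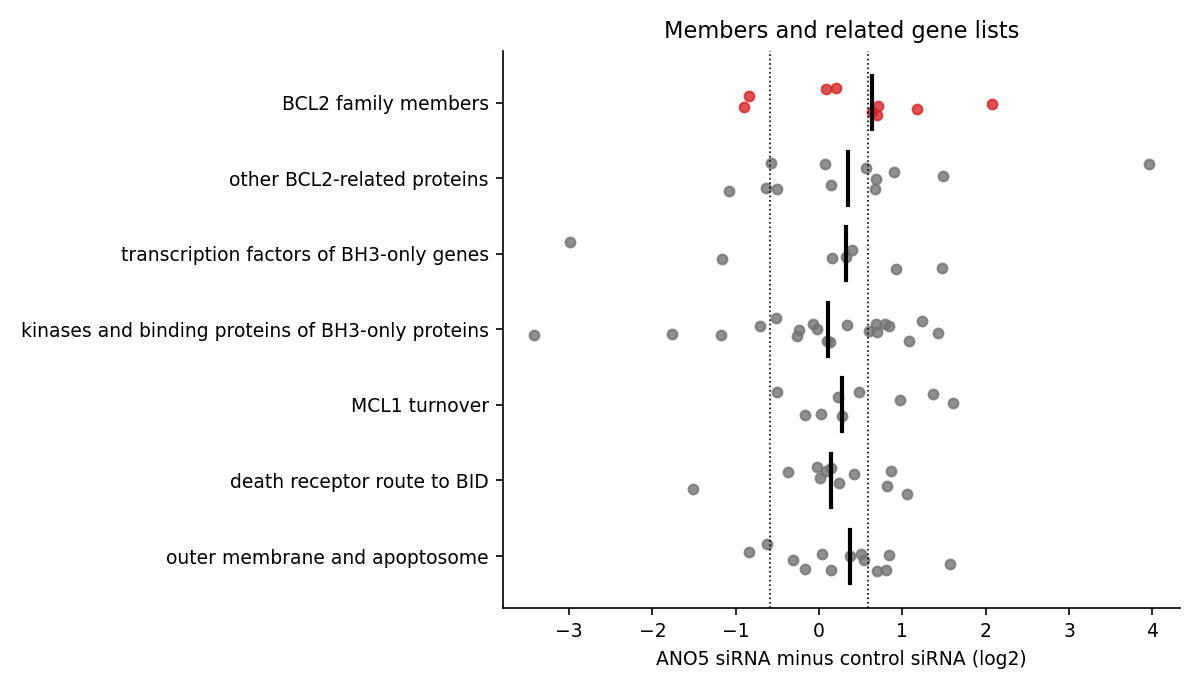
Log2 difference, ANO5 siRNA minus control siRNA, of each measured gene of the BCL2 family members (red) and of the 6 related lists (grey), with a bar at the list's median and dotted lines at 1.5-fold; points are spread vertically for legibility. Every list holds genes on both sides of 0, and the medians run from 0.11 to 0.63.

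For the series as a whole, ANO5 itself was at 6.83 on the control array and 3.67 on the ANO5 siRNA array (-3.16), the latter at or above 4.68% of clusters. Its mean of 5.25 lies outside the measured range, and the lower value is near that of PTPRC, a blood cell marker (3.68 and 3.49), so no fold is given. The epithelial markers EPCAM, CDH1, KRT8, KRT18 and KRT19 had log2 signals between 14.60 and 17.37 on both arrays. They were not level between the arrays: KRT19 differed by 1.02 and CDH1 by 0.61, the 2 of 5 past 1.5-fold, and the median was 0.41. Their part in the members' differences was not tested. Of 6 markers of blood, fibroblasts and endothelium, 4 were in the table and 2, COL1A2 and VWF, in the measured range. They differed by -0.11 and 0.52, with log2 signals (control first) of 8.03 and 7.92 for COL1A2 and 7.14 and 7.66 for VWF. Both lay above BMF and BIK on each array, and above HRK on the ANO5 siRNA array. On the control array HRK, at 7.38, lay between VWF and COL1A2. How much of these signals is background was not tested. In bulk RNA a change in every cell and a change in the share of some cells cannot be told apart.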

How the data were processed

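RNA of 2 NUGC4 cultures was labelled with biotin and measured on expression arrays, 1 array per group. The authors deposited a log2 signal summarised to 17345 transcript clusters. Not given in the sources used here were the genome build, the log base, the normalization, the background correction and the way probes were summarised. Agilent Feature Extraction, version 12.0.3.1, is what the submitters' processing notes list, although the cluster identifiers look like those of another maker, so the array's maker is in doubt. The log2 scale was inferred from the values, which span 2.13 to 18.15. The arrays' medians were 7.69 (control) and 7.68.

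Symbols came from the platform annotation. Of the clusters 14544 had 1 symbol, 0 several and 2801 none. All 9 members matched their current gene record by Entrez identifier. Where a gene had several clusters, the one with the highest mean was kept. Values were used as deposited, because the 75th percentiles differed by 0.02, under the 0.1 set for rescaling. Differences are ANO5 siRNA minus control siRNA. The number of arrays limits the precision, and no test was possible.

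The genes named are all members, ANO5, FOXO3, and up to 3 genes each way from each related list, with the marker genes of gastric epithelium and other cells; others are marked. The members and lists were chosen with earlier results of these data known. Functions were tested on simulated data. Alternatives were 4 scalings, a pseudocount of 64, the median over clusters, other filters and a 2-fold rule. Python 3.11.15, numpy 2.4.6, pandas 2.3.3, statsmodels 0.14.6 and matplotlib 3.10.9 were used.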

Additional observations from a re-analysis of the deposited data

How the results depend on the processing

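No paired analysis was possible because each group holds 1 array. A move of less than 0.1 on the log2 scale was counted as no move. Single members gave 54 values under alternatives, of which 52 kept their side of the 1.5-fold limit. BID and BAD after loess were the exceptions, and no member past that limit changed sign. The 54 include centring and the median over clusters, which moved no member. They also include the 75th percentile scaling, whose shift of 0.02 is less than the 0.045 by which BAD passed the limit. These settings could not take a member across, so that the count overstates the check. Under the 4 scalings the largest move of a member was 0.14, and the median of all measured genes moved from 0.07 to -0.01 after loess. Loess gave 3 higher members in place of 5, where 19.7% of measured genes were higher. It took the members' median from 0.63 to 0.52. The pseudocount took BAK1 from 1.17 to 1.05 and HRK from -0.90 to -0.59, beside the 1.5-fold limit. The filter at the 50th percentile leaves out BMF, BIK and HRK. It gave 1 lower member in place of 2, where 20.6% of measured genes were lower. The BH3-only median was then 0.71 in place of 0.41. With 2-fold in place of 1.5-fold, 2 members were higher and 0 lower, and in the related lists, an alternative chosen after seeing the data, 10 genes were higher and 7 lower in place of 25 and 11. Centring moved no value, and each member has 1 cluster, so that the median over clusters is no check. Signal over background is unknown, which limits what the values of BMF, BIK and HRK can show.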
